A study of Mus musculus with 14 samples.

Results

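Mertk, Axl, Gas6, Pros1, Cd36, Msr1, Stab1 and Lrp1 are 8 genes of phagocytosis and scavenging, taken by their gene symbols from the table of microglial transcripts of the dorsal horn. All 8 were among the 14329 genes of the table, and all 8 passed the filter on low counts (a minimum of 10 reads in 7 or more of the 14 libraries), which left 12645 genes to be tested. The study asked how microglia respond to inflammatory arthritis, and whether that response differs in a mouse model of amyloid pathology. Bulk RNA-seq was made from 2000 sorted CD45low CD11b+ CX3CR1+ cells per sample from the dorsal lumbar spinal cord, dissected after the meninges had been taken off, with cells positive for Ly6C or CCR2, proteins of inflammatory monocytes, gated out.

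The mice were 6-month-old males and females. Wild-type (WT) mice were C57BL/6. TASTPM mice were heterozygous for human transgenes, among them APP with the Swedish mutation, driven by the murine Thy-1 promoter, which is mainly active in neurons. Arthritis was induced by intraperitoneal transfer of serum from arthritic K/BxN mice (K/BxN ST), and control mice received pooled serum from KRN/C57 mice (Control ST). Cells were sorted on day 5. There were 3 WT Control ST, 4 WT K/BxN ST, 3 TASTPM Control ST and 4 TASTPM K/BxN ST libraries. The study's statistics section counts individual mice as replicates, while the labels do not tie a library to an animal or to a sex. Sex-linked transcripts had large differences between groups that did not pass the correction. Eif2s3y, which is Y-linked, had a log2 difference of -6.67 (limma unadjusted p = 0.0130, adjusted p = 0.750) for TASTPM against WT in Control ST and of 5.50 (unadjusted p = 0.0253, adjusted p = 0.964) with K/BxN ST in TASTPM, and its interaction of genotype and serum was 8.72 (unadjusted p = 0.0140, adjusted p = 0.999). Xist, expressed from the inactive X chromosome, differed by -6.47 (unadjusted p = 0.0621, adjusted p = 0.964) with K/BxN ST in TASTPM. With a sex-linked score as a covariate, the log2 difference of Stab1 between genotypes in Control ST was 0.15 in place of 0.58, and the response of Msr1 in TASTPM was -0.13 in place of 2.80.

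Microglia clear dying cells, synaptic material and lipid particles through receptors that bind either bridging proteins or the cargo itself. MerTK and Axl belong to the TAM family of receptor tyrosine kinases, and they reach phosphatidylserine on dying cells through the bridging proteins Gas6 and protein S, the product of Pros1. Scavenger receptors such as CD36, macrophage scavenger receptor 1 and stabilin-1 take up oxidised lipoproteins and other altered ligands, and LRP1 is a large endocytic receptor of the LDL receptor family.

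In the genome build of the deposited data, GRCm39, Mertk lies at chr2:128540729-128645080 on the plus strand and Axl at chr7:25456535-25488329 on the minus strand. The ligand genes are Gas6 at chr8:13515371-13544824 on the minus strand and Pros1 at chr16:62674275-62749710 on the plus strand. Cd36 lies at chr5:17986432-18094067, Msr1 at chr8:40034726-40095714, Stab1 at chr14:30860970-30890598 and Lrp1 at chr10:127374012-127457017, all on the minus strand. Exons of Stab1 share up to 387 bases with a gene of the opposite strand, and one of its neighbours, Nt5dc2, is also in the table. Exons of Lrp1 share 1271 bases with an opposite-strand transcript, Gm67009. Whether reads were counted by strand is not given in the sources used here, so a contribution of these neighbours to Stab1 and Lrp1 could not be separated.

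Promoter windows of 250 bases before and 50 bases after the transcription start were taken from RefSeq (GRCm38.p6) for the 7 genes that matched by symbol. Of these, 4 windows are shown: those of Mertk and Pros1, the most abundant of the 8 genes, that of Cd36, which had the lowest GC content, and that of Stab1, which held no GC box. Capitals mark the GC box GGGCGG or its reverse complement CCGCCC, and the core of the PU.1-type ETS motif, GAGGAA or its reverse complement TTCCTC, with overlapping matches counted.
Mertk, chr2:128698665-128698964, plus strand: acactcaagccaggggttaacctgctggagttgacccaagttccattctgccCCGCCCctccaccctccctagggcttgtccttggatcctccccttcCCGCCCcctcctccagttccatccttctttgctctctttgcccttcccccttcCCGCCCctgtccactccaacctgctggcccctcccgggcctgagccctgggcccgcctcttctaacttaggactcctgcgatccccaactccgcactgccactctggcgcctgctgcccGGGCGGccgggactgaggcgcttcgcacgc
Pros1, chr16:62854057-62854356, plus strand: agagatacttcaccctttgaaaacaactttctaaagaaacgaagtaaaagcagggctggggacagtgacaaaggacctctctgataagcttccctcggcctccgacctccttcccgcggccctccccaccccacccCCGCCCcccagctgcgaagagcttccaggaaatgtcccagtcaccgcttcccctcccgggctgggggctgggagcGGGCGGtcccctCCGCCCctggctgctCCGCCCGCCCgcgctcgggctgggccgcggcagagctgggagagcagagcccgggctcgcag
Cd36, chr5:17835847-17836146, minus strand: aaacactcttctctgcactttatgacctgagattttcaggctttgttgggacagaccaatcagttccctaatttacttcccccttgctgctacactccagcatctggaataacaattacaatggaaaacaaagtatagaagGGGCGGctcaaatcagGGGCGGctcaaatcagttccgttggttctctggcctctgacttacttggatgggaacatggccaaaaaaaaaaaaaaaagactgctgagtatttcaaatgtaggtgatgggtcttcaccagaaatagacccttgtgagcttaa
Stab1, chr14:31168592-31168891, minus strand: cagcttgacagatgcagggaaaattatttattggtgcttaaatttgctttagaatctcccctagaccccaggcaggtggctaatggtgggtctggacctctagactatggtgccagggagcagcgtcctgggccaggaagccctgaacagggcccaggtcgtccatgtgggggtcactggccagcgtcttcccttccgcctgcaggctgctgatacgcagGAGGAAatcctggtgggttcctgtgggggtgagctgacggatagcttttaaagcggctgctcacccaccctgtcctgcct

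A GC box was present in 6 of the 7 windows, 5 times in Pros1, 4 times each in Mertk and Gas6, 2 times each in Axl and Cd36 and 1 time in Lrp1. Over all 32851 RefSeq promoter windows of the same length, 35.7% held one. The ETS core was found in the windows of Axl and Stab1, and in 28.3% of all windows. Neither the AP-1 motif TGANTCA, present in 7.81% of all windows, nor the TATA motif TATAAA, present in 13.6%, was found in any of the 7. The GC content was 43.0% for Cd36 and 57.3% to 67.7% for the other 6 genes. These matches describe the letters of the windows only.

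Reads on genes ranged from 14223015 to 20239175 per library. Microglial markers identified the sorted cells, as all 10 markers of the list (Tmem119, P2ry12 and others) were detected and together took 1.60% to 6.21% of the reads. However, 4 K/BxN ST libraries stood apart, namely WT K/BxN ST 1 and 2 and TASTPM K/BxN ST 1 and 2. Markers of monocytes and neutrophils together took 2.09% and 0.554% of the reads in the WT pair and 2.12% and 1.87% in the TASTPM pair, against 0.0268% to 0.0727% in the other 10 libraries. All 10 monocyte markers and all 10 neutrophil markers were in the table, with F10 and Vcan at 0 in every WT Control ST library and Ly6g at 0 in every Control ST library. The summed monocyte share reached 0.790% in WT and 0.939% in TASTPM K/BxN ST, and was at most 0.00254% in Control ST. In WT K/BxN ST 2 the neutrophil share, 0.0623%, was within the range of Control ST, where Csf3r made up 76.9% to 99.9% of the neutrophil sum. Without Csf3r the share was 0.0213% in this library and at most 0.0159% in Control ST. Mmp8, a neutrophil collagenase, had 3245 normalized counts there against at most 59.97 in Control ST. Camp (23.0) and Ngp (32.8) exceeded their Control ST maxima of 7.27 and 32.2. However, S100a8 (143), S100a9 (51.4) and Retnlg (30.1) were below WT Control ST 3 (969, 1525 and 252), and Ly6g was at 0. This library therefore stood apart mainly by monocyte markers (0.492%) and Mmp8. The name high in monocyte and neutrophil markers refers to the summed share of both lists. Markers of border-associated macrophages, 9 of 10 in the table, were also highest in these 4 libraries, at 0.0715% to 0.217%, against at most 0.0121% elsewhere. F13a1, which monocytes also express, made up 87.2% to 90.9% of that sum in the 4 libraries, and without it the share was 0.00915% to 0.0261% in them and at most 0.00623% elsewhere. Not every gene of the list followed, as Mrc1 had 599 normalized counts in TASTPM K/BxN ST 3, above 3 of the 4 libraries, and Lyve1 was highest in TASTPM Control ST 2, at 476. Markers of dendritic cells, 6 of 8 in the table and with Clec9a at 0 in every Control ST library, followed the same division, at 0.00679% to 0.0480% in the 4 libraries and at most 0.00430% elsewhere. Microglial markers were lowest in the same 4 libraries, at 1.60% to 3.86%, against 4.69% to 6.21% in the others. In bulk samples, fewer cells of a type and less RNA per cell cannot be told apart. The log2 fold changes of the 8 genes and of the listed genes named below are therefore also given without these 4 libraries, a choice made after the data were seen. In the 10 libraries left, sex-linked transcripts differed with K/BxN ST in WT, though none passed the correction. The Y-linked genes Ddx3y, Uty, Kdm5d and Eif2s3y were at -9.08, -7.89, -6.99 and -6.52 (limma unadjusted p = 0.00761 to 0.0222), and Xist was at 6.02. In TASTPM their signs were opposite, with Eif2s3y at 4.32. The part of sex in the values without the 4 libraries was not tested. Library numbers follow the order of the table within a group.

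Counts were scaled between libraries by the authors, and the values below are these normalized counts. Fold changes are log2 differences from limma on log2(normalized count + 1), so those of genes near 0 depend on the added 1 and on libraries with few reads, and can be smaller than, larger than or opposite in sign to the ratio of the mean counts. For Cd36 and Msr1, which had libraries at 0 or 1 read, values from edgeR and DESeq2 on the reads are also given. Genes were called where the Benjamini-Hochberg adjusted p was below 0.05 and the log2 fold change exceeded 1 in size. Exact permutation tests were two-sided on the difference of mean log2 values, and the smallest p they allow is 0.0286 for 4 against 3 or 4 libraries and 0.100 for 3 against 3.

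The 8 genes differed widely in abundance. Per kilobase of exon, the median normalized count over the 14 libraries was 3294 for Pros1, 2233 for Mertk, 416 for Gas6, 365 for Stab1, 196 for Axl, 173 for Lrp1, 9.94 for Cd36 and 9.53 for Msr1. By mean normalized count, not corrected for length, Pros1 ranked 92 and Mertk 213 of all 14329 genes. Pros1 exceeded Mertk per kilobase in 14 of 14 libraries, and Mertk exceeded Gas6 in 14 of 14. Gas6 and Stab1 could not be ordered, with Gas6 higher in 7 of 14 libraries, nor could Axl and Lrp1, with Axl higher in 8 of 14, nor Cd36 and Msr1, with Cd36 higher in 6 of 14. Thus, among the bridging proteins, Pros1 was well above Gas6, and among the TAM receptors Mertk was above Axl. The spread over libraries also divided the set. The SD of log2 values was 3.54 for Cd36 and 4.04 for Msr1, and between 0.36 and 0.63 for the other 6 genes.

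**Figure D1:**
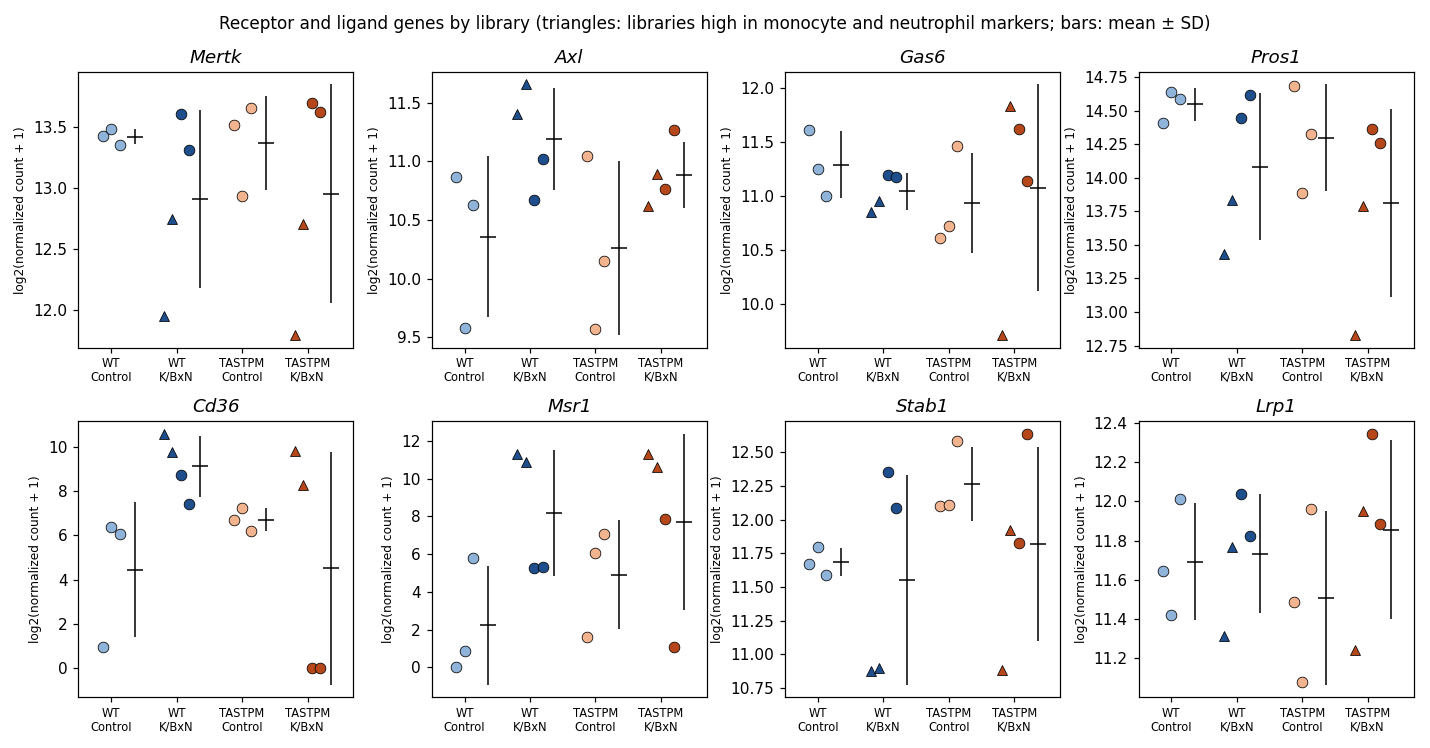
Log2(normalized count + 1) of each gene in each of the 14 libraries by group, with separate vertical scales; points are libraries, triangles are the 4 libraries high in monocyte and neutrophil markers, and bars are the mean ± SD of the group. Cd36 and Msr1 range from 0 to over 10 on this log2 scale, whereas the other 6 genes stay within about 2 units, and the triangles are lowest for Mertk and Pros1 within K/BxN ST.

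None of the 8 genes was called in any of the 5 comparisons by limma, edgeR or DESeq2 over all 14 libraries. The background was also low by limma, which called 1 of 12645 genes (0.00791%), Rarg, with K/BxN ST in WT and 0 genes (0%) in TASTPM, in the interaction of genotype and serum and in both genotype comparisons. At an unadjusted limma p below 0.05 there were 902 genes (7.13%) in WT, 533 (4.22%) in TASTPM, 385 (3.04%) in the interaction, 704 (5.57%) between genotypes in Control ST and 241 (1.91%) between genotypes in K/BxN ST. Of the 8 genes, Axl, Cd36 and Msr1 were among the 902 in WT, Cd36 was among the 385 and among the 241, and none was among the 533 or the 704. edgeR called 0 genes in any comparison, with 782, 509, 329, 582 and 184 genes at an unadjusted p below 0.05 in the same order. DESeq2, with an adjusted p for 12625 genes, called more: 127 genes (1.01%) with K/BxN ST in WT, 16 (0.127%) in TASTPM, 12 (0.095%) in the interaction, 41 (0.325%) between genotypes in Control ST and 0 between genotypes in K/BxN ST.

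Mertk, the TAM receptor most abundant in these cells, had normalized counts of 10996, 11468 and 10475 in WT Control ST and of 3953, 6880, 12499 and 10191 in WT K/BxN ST. In TASTPM it had 11717, 7809 and 12940 in Control ST and 3540, 6667, 13267 and 12606 in K/BxN ST. In both genotypes the first pair of K/BxN ST libraries, those high in monocyte and neutrophil markers, lay below every Control ST library, and the other pair lay within or close to the Control ST range. The log2 fold change with K/BxN ST was -0.52 (SE 0.44) in WT, with limma adjusted p = 0.791 and an exact permutation p of 0.343. In TASTPM the difference was -0.42 (SE 0.44), with limma adjusted p = 0.964 and an exact permutation p of 0.514. When the 4 libraries were left out, the Mertk difference was 0.041 (SE 0.21) in WT and 0.29 (SE 0.21) in TASTPM, so its sign turned in both genotypes. Relative to the mean of the microglial markers in each library it was 0.012 in WT and 0.20 in TASTPM, a scale on which the median of all genes was 0.58 and 0.62.

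Axl, the TAM receptor that is typically raised in inflamed phagocytes, had normalized counts of 1862, 764 and 1584 in WT Control ST and of 2712, 3226, 1628 and 2080 in WT K/BxN ST. In TASTPM it had 2112, 762 and 1138 in Control ST and 1569, 1901, 1739 and 2471 in K/BxN ST. In WT, 3 of 4 K/BxN ST libraries lay above every Control ST library, and in TASTPM 1 of 4 did. With K/BxN ST, the log2 fold change of Axl was 0.83 (SE 0.37) in WT, with an unadjusted limma p of 0.0386, an adjusted p of 0.684 and an exact permutation p of 0.114. In TASTPM it was 0.63 (SE 0.37), with limma adjusted p = 0.964 and an exact permutation p of 0.229. The differences therefore did not pass the correction in either genotype, and the difference between the genotypes, -0.20 (SE 0.52) on the log2 scale, was smaller than its error. With the 4 libraries left out, the serum response of Axl was 0.49 (SE 0.45) in WT and 0.76 (SE 0.45) in TASTPM, so that Axl, in contrast to Mertk, kept its direction.

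The balance of both receptors was also measured within each library, as the log2 ratio of Axl to Mertk, a measure chosen after the data were seen. Lengths were not corrected for, so only differences between libraries are read. Mertk counts were 5.90, 15.02 and 6.61 times those of Axl in WT Control ST and 1.46, 2.13, 7.68 and 4.90 times in WT K/BxN ST. In TASTPM the ratios of Mertk to Axl were 5.55, 10.2 and 11.4 in Control ST and 2.26, 3.51, 7.63 and 5.10 in K/BxN ST. In each genotype 3 of 4 K/BxN ST libraries had a lower ratio of Mertk to Axl than every Control ST library, and the pair high in monocyte and neutrophil markers had the lowest. The log2 ratio of Axl to Mertk was -1.72 ± 1.09 (SD, n = 4) in WT K/BxN ST and -3.06 ± 0.73 (SD, n = 3) in WT Control ST, a difference of 1.35 (exact permutation p = 0.171). In TASTPM it was -2.07 ± 0.75 (SD, n = 4) against -3.11 ± 0.56 (SD, n = 3), a difference of 1.05 (exact permutation p = 0.114). These differences did not exceed the spread between libraries by that test. Leaving out the 4 libraries, they were 0.45 in WT (exact permutation p = 0.600) and 0.47 in TASTPM (exact permutation p = 0.400), from 2 against 3 libraries each.

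Pros1, which encodes protein S, the bridging protein that also circulates as an anticoagulant cofactor, was the most abundant of the 8 genes in every library. It had normalized counts of 21773, 25551 and 24646 in WT Control ST and of 11059, 14643, 22276 and 25190 in WT K/BxN ST. In TASTPM it had 26300, 15183 and 20532 in Control ST and 7264, 14183, 21104 and 19630 in K/BxN ST. As for Mertk, the K/BxN ST pair high in monocyte and neutrophil markers was below every Control ST library in both genotypes, and the other pair was not. Pros1 differed by a log2 fold change of -0.46 (SE 0.36) in WT, with an exact permutation p of 0.314, and -0.49 (SE 0.36) in TASTPM, with an exact permutation p of 0.371. Leaving out the 4 libraries gave -0.015 (SE 0.20) in WT and 0.014 (SE 0.20) in TASTPM.

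Gas6, the other TAM ligand, had normalized counts of 3133, 2437 and 2045 in WT Control ST and of 1841, 1981, 2348 and 2316 in WT K/BxN ST. In TASTPM it had 1566, 1686 and 2829 in Control ST and 836, 3652, 3152 and 2255 in K/BxN ST. The groups overlapped in both genotypes, and the lowest and the highest value of the whole series both fell in TASTPM K/BxN ST, in the pair of libraries high in myeloid markers. Gas6 had a log2 fold change of -0.24 (SE 0.40; exact permutation p = 0.229) in WT and 0.14 (SE 0.40; exact permutation p = 0.857) in TASTPM. The remaining 10 libraries gave -0.10 (SE 0.29) in WT and 0.45 (SE 0.29) in TASTPM.

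**Figure D2:**
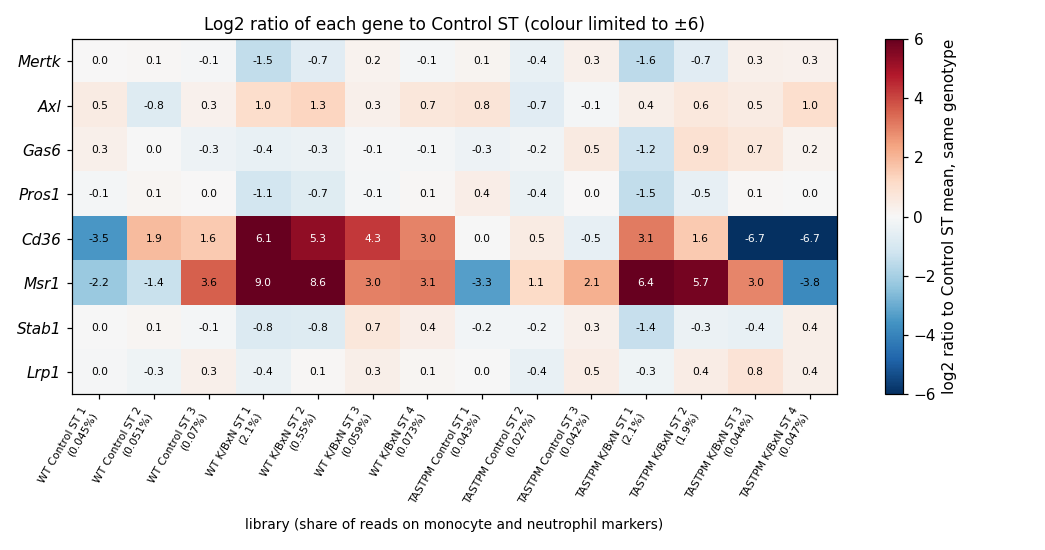
Log2 ratio of each gene (rows) in each library (columns) to the mean log2 value of Control ST of the same genotype, with the share of reads on monocyte and neutrophil markers under each library name; red is higher, blue is lower, and colours are limited at 6 units. Mertk and Pros1 are below the Control ST mean in the 4 libraries with a share above 0.5% and near 0 in the other K/BxN ST libraries, and within each genotype Msr1 and Cd36 are highest in the same libraries.

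Among the scavenger receptors, Cd36 had the largest interaction of genotype and serum of the 8 genes by log2 difference, which did not pass the correction. CD36 binds oxidised lipoproteins, long-chain fatty acids and amyloid fibrils. In WT its normalized counts were 0.937, 81.3 and 64.9 with Control ST and 1545, 866, 417 and 169 with K/BxN ST. In TASTPM they were 103, 148 and 72.7 in Control ST and 899, 311, 0 and 0 in K/BxN ST. All WT K/BxN ST libraries exceeded all WT Control ST libraries, including both libraries low in monocyte and neutrophil markers. In TASTPM, the pair of K/BxN ST libraries high in those markers was above every Control ST library and the pair low in them had no Cd36 read at all, where a count of 0 allows up to 3 reads.

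In WT, the mean of Cd36 was 749 ± 604 (SD, n = 4) with K/BxN ST and 49.1 ± 42.5 (SD, n = 3) with Control ST, a ratio of 15.3. The log2 fold change was 4.66 (SE 2.12), with an unadjusted limma p of 0.0442 and an adjusted p of 0.691. The exact permutation p was 0.0286, the smallest that 4 against 3 libraries allow. Of all genes tested, 464 (3.67%) were higher and 469 (3.71%) lower in every WT K/BxN ST library than in every WT Control ST library, and Cd36, among the higher, was the only one of the 8 genes without overlap. On the reads, the WT value was 3.95 by edgeR and 3.94 by DESeq2. Without the 4 libraries the WT log2 fold change was 3.605 (SE 1.52), with an unadjusted p of 0.0365 and limma adjusted p = 1.000. In that fit the WT groups also differed in sex-linked transcripts, as given above. Leaving out WT Control ST 1 alone, which held 1 read of Cd36, gave 2.91, and leaving out any other single library of the comparison gave 4.17 to 5.62.

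In TASTPM, the Cd36 log2 fold change was -2.18 (SE 2.12), with limma adjusted p = 0.964 and an exact permutation p of 0.429. On the linear scale its mean was 303 ± 424 (SD, n = 4) with K/BxN ST and 108 ± 37.7 (SD, n = 3) with Control ST, so the sign depended on the scale, and edgeR and DESeq2 on the reads gave positive log2 fold changes of 1.50 and 1.49. Without the 4 libraries the log2 fold change of Cd36 in TASTPM was -6.71 (SE 1.52), with an unadjusted p of 9.8e-04 and limma adjusted p = 0.996. Both K/BxN ST libraries of that fit had 0 reads of Cd36, so the fitted size is set by the added 1. With a floor of 3 reads per library, Cd36 was at least 31.2-fold lower than the mean of TASTPM Control ST. The TASTPM K/BxN ST and Control ST groups did not overlap for 338 genes that were higher (2.67%) and 346 that were lower (2.74%), and none of the 8 genes was among them.

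The interaction of genotype and serum for Cd36 was -6.85 (SE 2.997) on the log2 scale, with an unadjusted limma p of 0.0377 and an adjusted p of 0.999. On the reads the interaction was smaller, at -2.45 by edgeR, with an unadjusted p of 0.283 and an adjusted p of 1.000, and -2.44 by DESeq2, with an unadjusted p of 0.347 and an adjusted p of 1.000. For the other 7 genes the unadjusted limma p ranged from 0.364 to 0.961. Between K/BxN ST groups, Cd36 was lower in TASTPM than in WT by a log2 difference of -4.59 (SE 1.962), with an unadjusted limma p of 0.0338, an adjusted p of 1.000 and an exact permutation p of 0.229. The mean was 303 in TASTPM and 749 in WT, a ratio of 0.404, and both edgeR and DESeq2 gave a log2 difference of -1.31 on the reads (unadjusted p = 0.372 and 0.441). With the 4 libraries high in myeloid markers left out, that genotype difference was -8.06 (SE 1.66), with an unadjusted p of 4.84e-04 and limma adjusted p = 0.837, and the interaction was -10.31 (SE 2.15), with an unadjusted p of 5.19e-04 and limma adjusted p = 0.998. Against the floor of 3 reads per library, Cd36 in these 2 TASTPM libraries was at least 84.8-fold lower than the mean of the remaining 2 WT K/BxN ST libraries (417 and 169). On the reads of the 10 libraries edgeR called none of the 8 genes in any comparison (Cd36 adjusted p = 1.000 in each). DESeq2 called Cd36 with K/BxN ST in TASTPM (adjusted p = 0.00584), in the interaction (adjusted p = 6.04e-04) and between genotypes in K/BxN ST (adjusted p = 1.75e-04), where it called 10 (0.0798%), 20 (0.16%) and 25 (0.208%) genes in all. It called 33 genes (0.263%) with K/BxN ST in WT and 52 (0.415%) between genotypes in Control ST, none of them among the 8. These Cd36 values rest on 2 K/BxN ST libraries per genotype, and whether Cd36 passed the correction depended on the tool.

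Msr1, which encodes a class A scavenger receptor for modified lipoproteins and other polyanionic ligands, showed the largest log2 fold change of the 8 genes in WT over all 14 libraries. Without the 4 libraries that of Cd36 was larger, at 3.605 against 3.04 for Msr1. In WT its normalized counts were 0, 0.838 and 55.4 with Control ST and 2481, 1882, 37.0 and 38.2 with K/BxN ST. In TASTPM they were 2.09, 65.5 and 133 in Control ST and 2477, 1588, 233 and 1.13 in K/BxN ST. The 4 highest values, from 1588 to 2481, were those of the 4 libraries high in monocyte and neutrophil markers, and every other library was at 233 or below. Both low WT K/BxN ST libraries were below WT Control ST 3.

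For Msr1, the log2 fold change was 5.94 (SE 2.37) in WT, with an unadjusted limma p of 0.0244, an adjusted p of 0.668 and an exact permutation p of 0.171. In TASTPM it was 2.80 (SE 2.37), with limma adjusted p = 0.964 and an exact permutation p of 0.429. On the reads, edgeR gave 5.92 in WT and 4.01 in TASTPM, and DESeq2 gave 5.90 (adjusted p = 0.154) and 4.02 (adjusted p = 0.888). Without the 4 libraries the Msr1 difference was 3.04 (SE 2.36) in WT and -0.44 (SE 2.36) in TASTPM, where edgeR gave 1.01 and 0.78 and DESeq2 1.01 and 0.80 on the reads, so the sign in TASTPM depended on the scale. Over all libraries the Msr1 response in TASTPM was -0.66 with a score of the monocyte and neutrophil markers as a covariate. It was also negative with the sex-linked score. The sort gated out Ly6C+ and CCR2+ cells, and the part of monocyte, neutrophil, macrophage or dendritic cell RNA in the Msr1 level was not tested beyond that.

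**Figure D3:**
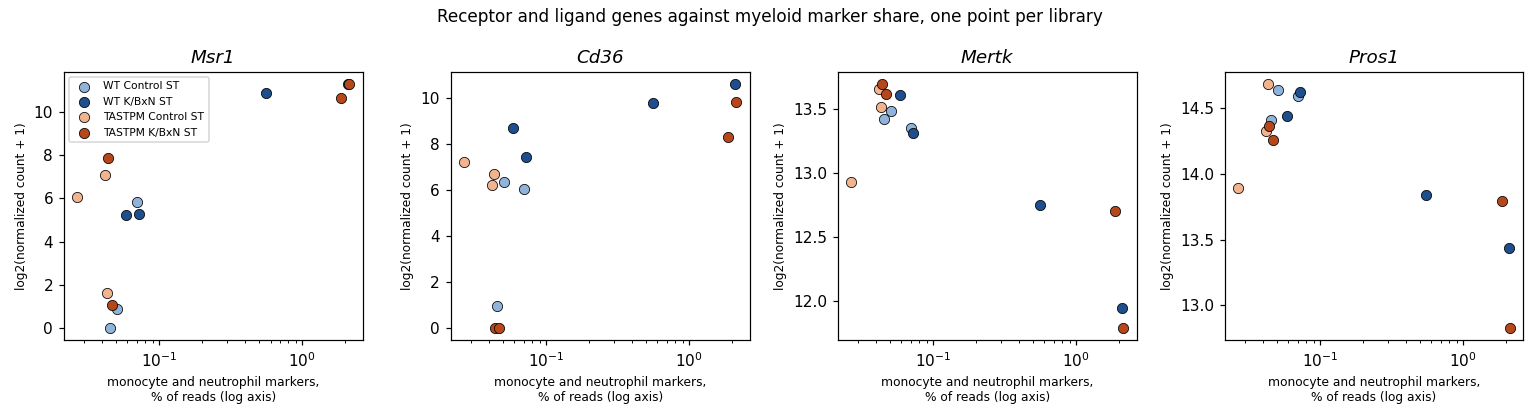
Log2(normalized count + 1) of Msr1, Cd36, Mertk and Pros1 (vertical axes, separate scales) against the share of reads on monocyte and neutrophil markers in percent (horizontal log axes), 1 point per library, coloured by group. The 4 libraries above 0.5% hold the 4 highest Msr1 values and the 4 lowest Pros1 and Mertk values within K/BxN ST, whereas Cd36 lies above WT Control ST in both WT K/BxN ST libraries of low share as well and is at 0 in both TASTPM K/BxN ST libraries of low share.

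Stab1, which encodes stabilin-1, an endocytic receptor of tissue macrophages and sinusoidal endothelium, had normalized counts of 3259, 3562 and 3081 in WT Control ST and of 1877, 1907, 5232 and 4346 in WT K/BxN ST. In TASTPM it had 4387, 4428 and 6137 in Control ST and 1887, 3876, 3641 and 6379 in K/BxN ST. In WT the K/BxN ST libraries split around Control ST, with the pair high in monocyte and neutrophil markers below and the other pair above every Control ST library. Stab1 had a log2 fold change of -0.13 (SE 0.40; exact permutation p = 0.714) in WT and -0.45 (SE 0.40; exact permutation p = 0.343) in TASTPM. The remaining 10 libraries gave 0.53 (SE 0.25; limma unadjusted p = 0.0535, adjusted p = 1.000) in WT and -0.030 (SE 0.25) in TASTPM.

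Stab1 was the only one of the 8 genes that separated the genotypes without arthritis, being higher in every TASTPM Control ST library than in every WT Control ST library. Its mean was 4984 ± 999 (SD, n = 3) in TASTPM and 3301 ± 243 (SD, n = 3) in WT. The log2 difference was 0.58 (SE 0.43), with limma adjusted p = 0.933, and the exact permutation p was 0.100, the smallest that 3 against 3 libraries allow. With the error estimated without the 4 libraries, none of which is in these groups, the same Stab1 difference had an SE of 0.22, an unadjusted limma p of 0.0236 and an adjusted p of 0.768. With the sex-linked score as a covariate, the Stab1 difference was 0.15. In this comparison 629 of all genes tested (4.97%) were higher without overlap and 596 (4.71%) lower, so 1 of 8 genes was close to the background. Endothelial markers, 4 of 8 in the table, took 0.00116% to 0.00242% of the reads in WT Control ST and 0.00215% to 0.00253% in TASTPM Control ST, with Ly6c1 at 0 in every WT Control ST library and Flt1 at 0 in every TASTPM Control ST library. Markers of border-associated macrophages took 0.000553% to 0.00125% in WT Control ST, with Lyve1 and Clec10a at 0 in every library, and 0.00138% to 0.0121% in TASTPM Control ST. The part of endothelial cells and of border-associated macrophages in the Stab1 level was not tested.

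Lrp1, the endocytic receptor for lipoproteins, protease complexes and amyloid-beta, varied least of the 8 genes. It had normalized counts of 3199, 2741 and 4126 in WT Control ST and of 2542, 3482, 4197 and 3623 in WT K/BxN ST. In TASTPM it had 2873, 2161 and 3982 in Control ST and 2423, 3960, 5200 and 3774 in K/BxN ST. The groups overlapped in both genotypes. The log2 fold change of Lrp1 was 0.042 (SE 0.28; exact permutation p = 0.8286) in WT and 0.35 (SE 0.28; exact permutation p = 0.400) in TASTPM. Without the 4 libraries it was 0.24 (SE 0.27) in WT and 0.60 (SE 0.27; limma unadjusted p = 0.0487, adjusted p = 0.996) in TASTPM.

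**Figure D4:**
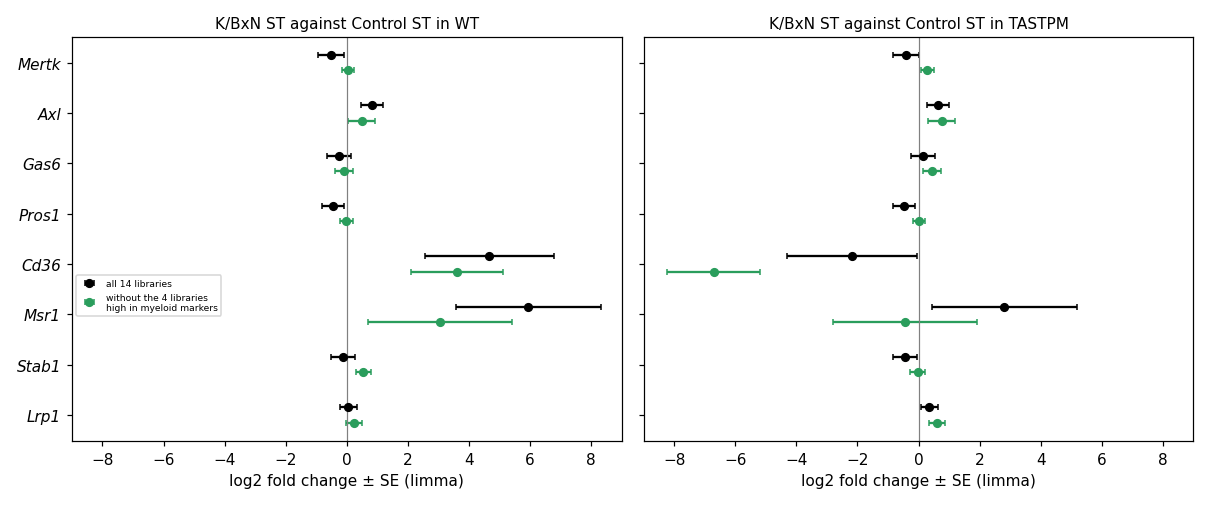
Serum response of the 8 genes in WT (left) and TASTPM (right) as the log2 fold change of K/BxN ST over Control ST, with SE from limma; black points use all 14 libraries and green points leave out the 4 libraries high in monocyte and neutrophil markers. In WT, leaving them out moves Mertk from -0.52 to 0.041 and Cd36 from 4.66 to 3.605, and in TASTPM it moves Mertk from -0.42 to 0.29 and Cd36 from -2.18 to -6.71.

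The genotype comparisons share their libraries with the serum comparisons. The differences of the 8 genes between genotypes did not pass the correction. In Control ST, the log2 differences of TASTPM against WT were -0.053 (SE 0.47) for Mertk, -0.10 (SE 0.39) for Axl, -0.35 (SE 0.42) for Gas6, -0.25 (SE 0.38) for Pros1 and -0.18 (SE 0.30) for Lrp1. Cd36 and Msr1 were higher by 2.26 (SE 2.26) and 2.68 (SE 2.53), each with an exact permutation p of 0.200, and their WT values included libraries with 0 or 1 read. On the reads edgeR gave 1.14 for Cd36 and 1.85 for Msr1, and DESeq2 1.13 and 1.82. In K/BxN ST, where 147 genes (1.16%) were higher and 85 (0.672%) lower without overlap and none of the 8 was among them, the differences were 0.047 (SE 0.40) for Mertk, -0.30 (SE 0.34) for Axl, 0.033 (SE 0.37) for Gas6 and -0.27 (SE 0.33) for Pros1. They were -0.46 (SE 2.19) for Msr1 (-0.058 by edgeR and -0.052 by DESeq2), 0.27 (SE 0.37) for Stab1 and 0.12 (SE 0.26) for Lrp1. When the 4 libraries were left out, the K/BxN ST differences were 0.20 (SE 0.23) for Mertk, 0.17 (SE 0.49) for Axl, 0.19 (SE 0.32) for Gas6, -0.22 (SE 0.22) for Pros1, -0.79 (SE 2.58) for Msr1 (1.61 by edgeR and 1.62 by DESeq2), 0.015 (SE 0.27) for Stab1 and 0.18 (SE 0.30) for Lrp1, so the sign turned for Axl and, on the reads, for Msr1. With SEs of 0.26 to 0.47 for these genes other than Cd36 and Msr1, small differences were not detectable with this number of libraries.

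For Cd36 and Msr1, whose values varied most, the genes with the most alike pattern over the 14 libraries were found by the root mean square difference of centred log2 values. For Cd36 these were Rhof (1.36), Fas (1.61) and Tiam1 (1.68), against an SD of 3.54 for Cd36 itself. For Msr1 they were Pilrb1 (1.26), AI662270 (1.65) and Unc119 (1.73), against an SD of 4.04. The differences were over 1 log2 unit for each of these 6 genes.

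Other genes of the same pathways were examined as lists, which were chosen with results of these data known. Of 14 other receptors and bridging proteins for dying cells, 10 were in the table and 8 were tested. None was called in any of the 5 comparisons, and the median log2 fold change with K/BxN ST was -0.052 in WT and -0.067 in TASTPM, beside 0.057 and 0.0056 for all genes tested. Itgb5, the integrin subunit that pairs with alpha V and binds the bridging protein MFG-E8, was the most abundant, with normalized counts of 26118 to 59613 in the WT K/BxN ST group and 54377 to 68388 in the WT Control ST group (log2 fold change -0.54, SE 0.40, limma adjusted p = 0.778). Tyrobp, the signalling adaptor of Trem2, showed a log2 fold change of 0.089 (SE 0.26) in WT and 0.035 (SE 0.26) in TASTPM. Trem2, the lipid and lipoprotein receptor of microglia, showed -0.47 (SE 0.34) in WT and -0.40 (SE 0.34) in TASTPM, and Cd300lf, an inhibitory receptor for phosphatidylserine, 1.94 (SE 1.07) and 0.57 (SE 1.07). In both genotypes Itgb5 was lowest, and Cd300lf highest among K/BxN ST libraries, in the pair high in monocyte and neutrophil markers. In the other 10 libraries, Itgb5 was at -0.081 (SE 0.19) in WT and 0.37 (SE 0.19) in TASTPM, Tyrobp at -0.097 (SE 0.25) and -0.24 (SE 0.25), Trem2 at -0.099 (SE 0.23) and -0.036 (SE 0.23), and Cd300lf at 0.60 (SE 1.08) and -0.71 (SE 1.08).

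Of 13 other scavenger receptors, 9 were in the table and tested and none was called, with median log2 fold changes of 0.30 in WT and -0.0075 in TASTPM. The lysosomal glycoprotein gene Cd68 was the most abundant, with a log2 fold change of -0.025 (SE 0.20) in WT and -0.23 (SE 0.20) in TASTPM. Scarb2, which encodes the lysosomal membrane protein LIMP-2, was lower in every TASTPM K/BxN ST library, at 3158 to 4525, than in every TASTPM Control ST library, at 5316 to 5817 (log2 fold change -0.50, SE 0.17, limma unadjusted p = 0.0114, adjusted p = 0.964). Of all genes tested, 346 (2.74%) were lower without overlap in that comparison. Olr1, the lectin-like receptor for oxidised LDL, showed 2.75 (SE 1.43) in WT and 1.46 (SE 1.43) in TASTPM, from counts of at most 251. Over the same 10 libraries Cd68 was at 0.058 (SE 0.18) in WT and -0.29 (SE 0.18) in TASTPM, Scarb2 in TASTPM was at -0.43 (SE 0.16), and Olr1 at 1.24 (SE 1.85) in WT and 1.09 (SE 1.85) in TASTPM.

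Of 12 other genes of the LDL receptor family and its helpers, 11 were in the table and 10 were tested. None was called, and the medians were 0.064 in WT and 0.042 in TASTPM. Lrp10 and Snx17, a sorting nexin that recycles LRP1, were the most abundant, with log2 fold changes between -0.13 and 0.12 over both genotypes. Lrp4 was low, its normalized counts being 45.8 to 204 in TASTPM K/BxN ST and 1.04 to 25.5 in TASTPM Control ST (log2 fold change 3.99, SE 1.41, limma unadjusted p = 0.0127, adjusted p = 0.964), and Lrp5 showed 0.93 (SE 0.64) in WT and -0.78 (SE 0.64) in TASTPM. Lrp4 was named for the smallest p of its list in TASTPM, where 338 of all genes tested (2.67%) were higher without overlap. Leaving out the 4 libraries gave 4.61 (SE 1.87) for Lrp4 in TASTPM, -0.067 (SE 0.29) in WT and 0.32 (SE 0.29) in TASTPM for Lrp10, 0.010 (SE 0.28) and -0.13 (SE 0.28) for Snx17, and 0.57 (SE 0.78) in WT and -0.076 (SE 0.78) in TASTPM for Lrp5. In Control ST, Lrp5 was 188 to 268 in TASTPM and 24.4 to 168 in WT (log2 difference 1.50, limma unadjusted p = 0.0460, adjusted p = 0.883). Between these groups 629 of all genes tested (4.97%) were higher without overlap.

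Of 15 genes of engulfment signalling and lipid handling downstream of these receptors, 14 were in the table and 13 were tested, and none was called. The medians were -0.14 in WT and 0.067 in TASTPM, and Elmo2, Ucp2 and Abca7 in WT and Elmo2 in TASTPM were higher at an unadjusted p below 0.05. Of all 12645 genes tested, 603 in WT and 331 in TASTPM were higher at that threshold. Abca7, a lipid transporter that promotes phagocytosis and is named after its values were seen, showed 1.64 (SE 0.57, limma adjusted p = 0.605) in WT, and 1.48 (SE 0.74) without the 4 libraries. Elmo2, which joins DOCK proteins to activate Rac during engulfment, had normalized counts of 1122 to 3120 in the WT K/BxN ST group and 642 to 1169 in the WT Control ST group. Its log2 fold change was 1.24 (SE 0.40, limma unadjusted p = 0.00788, adjusted p = 0.582) in WT and 0.94 (SE 0.40, unadjusted p = 0.0340, adjusted p = 0.964) in TASTPM. Its highest values in each genotype were those of the pair high in monocyte and neutrophil markers, and without the 4 libraries it was at 0.66 (SE 0.38, limma adjusted p = 1.000) in WT and 0.65 (SE 0.38, limma adjusted p = 0.996) in TASTPM. Ucp2, a mitochondrial carrier linked to sustained uptake of dying cells, showed 0.90 (SE 0.37, limma adjusted p = 0.684) in WT and 0.61 (SE 0.37, adjusted p = 0.964) in TASTPM, with its highest values in WT K/BxN ST 1 and TASTPM K/BxN ST 1, both high in monocyte and neutrophil markers, and 0.25 (SE 0.20) and 0.21 (SE 0.20) without the 4 libraries. Rac1 itself, the small GTPase that drives the engulfing actin cup, showed 0.089 (SE 0.17) and 0.067 (SE 0.17), and -0.11 (SE 0.14) and 0.0033 (SE 0.14) without the 4 libraries.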

How the data were processed

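The deposited table held 14329 genes in 14 libraries. Per the labels and the study's methods, reads were aligned with HISAT2 (2.1) to GRCm39 and counted with featureCounts (1.5.2), and the authors deposited signal values, namely read counts divided by DESeq2 size factors. Division by the value of 1 read gave whole reads for 100.0% of values (tolerance 0.05). cDNA was amplified, so a floor of 3 reads covers counting error only. Genes that reached 10 reads in 7 or more libraries were fitted with limma (3.58.1, variance trend) over all 4 groups. edgeR (4.0.16) and DESeq2 (1.42.0) on the reads were alternatives, beside other scaling, pseudocounts, filters, covariates and left-out libraries. The tests were checked on simulated counts with the spread of the Control ST libraries, so the spread between K/BxN ST libraries was not covered. Column names match the labelled replicate only for TASTPM K/BxN ST; the others are numbered by table order. The study's methods give individual mice as biological replicates. Lengths came from the GENCODE annotation of GRCm39. The genes, lists and markers were chosen with earlier results of these data known. Named list genes were the 2 most abundant of each list and that with the smallest unadjusted p in each serum comparison.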

Additional observations from a re-analysis of the deposited data

Results flagged for a closer look

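The response of Cd36 to K/BxN serum had an interaction with genotype at an unadjusted p below 0.05 on log2(normalized count + 1), with a log2 difference of -6.85 (SE 2.997) for TASTPM against WT and an unadjusted limma p of 0.0377. It failed the correction over all genes (adjusted p = 0.999). All 4 WT K/BxN ST libraries were above the WT Control ST libraries, whereas 2 of 4 TASTPM K/BxN ST libraries were above and 2 below the TASTPM Control ST libraries. The 2 low libraries held 0 reads of Cd36. By mean normalized count Cd36 was higher with K/BxN ST in both genotypes, by a ratio of 15.3 in WT and 2.80 in TASTPM, and the interaction on the reads was -2.45 by edgeR (unadjusted p = 0.283) and -2.44 by DESeq2 (unadjusted p = 0.347). Without the 4 libraries high in monocyte and neutrophil markers, DESeq2 called the interaction (adjusted p = 6.04e-04), edgeR did not (adjusted p = 1.000) and limma did not (adjusted p = 0.998). Leaving out 1 library gave interactions of Cd36 from -8.61 to -5.10, and the unadjusted p was above 0.05 without WT Control ST 1 (0.114), WT K/BxN ST 1 (0.0641) or 2 (0.0578), TASTPM K/BxN ST 3 (0.0749) or 4 (0.0755), or any 1 of the TASTPM Control ST libraries (0.0522 to 0.0696). In the 16 groups of 4 libraries for the 8 genes, 0 values stood apart by Dixon's criterion, where chance gives about 1 in 20. The criterion looks for a single value apart, so it could not mark K/BxN ST libraries that lay apart as a pair.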

How the results depend on the processing

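No paired analysis was possible because the labels number the libraries 1 to 14 with no number shared between groups. Of 928 values of the 8 genes under 29 alternatives, 839 had the sign of the reported value, 89 had the opposite sign and 3 were called. These were Cd36 by DESeq2 without the 4 libraries high in myeloid markers, with the smallest adjusted p of 1.75e-04, so the number of the 8 genes called was 1 in place of 0 in TASTPM, in the interaction and between genotypes in K/BxN ST. The number of genes called with K/BxN ST in WT, 1 as reported, was 0 with pseudocount 5, with edgeR, with only the groups compared, with the myeloid marker score as covariate and without the 4 libraries high in myeloid markers, 2 without the variance trend, 127 with DESeq2 and 0 to 17 leaving out 1 library (0 without WT K/BxN ST 1, 2 or 3, 2 without WT K/BxN ST 4, and 3, 14 and 17 without WT Control ST 1, 2 and 3). DESeq2 without the 4 libraries called 33 (WT), 10 (TASTPM), 20 (interaction), 52 (genotype in Control ST) and 25 (genotype in K/BxN ST), and edgeR 0 in each, with 472, 406, 424, 647 and 385 at an unadjusted p below 0.05. The counts that were 0 were 16 (TASTPM), 12 (interaction) and 41 (genotype in Control ST) with DESeq2. Genotype in Control ST gave 1 with the myeloid score, with the sex-linked score and without the 4 libraries. Leaving out 1 library gave 0 to 1 (TASTPM; 1 without TASTPM Control ST 2 or 3), 0 to 3 (interaction; 3 without WT Control ST 2) and 0 to 11 (genotype in Control ST; 2, 9 and 11 without WT Control ST 1, 2 and 3, 2 and 1 without TASTPM Control ST 2 and 3). TMM or library totals moved the median of all genes by less than 0.1; relative to microglial markers it moved by 0.53 in WT, 0.61 in TASTPM, 0.25 between genotypes in Control ST and 0.34 in K/BxN ST.

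Signs turned as follows, as log2 differences. On reads, with edgeR and DESeq2, Stab1 in WT was 0.025 and 0.015 and Cd36 in TASTPM 1.50 and 1.49. With the myeloid score, WT gave Mertk 0.16, Pros1 0.030 and Stab1 0.38, TASTPM gave Mertk 0.33, Pros1 0.058, Msr1 -0.66 and Stab1 0.12, the interaction gave Pros1 0.027 and genotype in Control ST Mertk 0.0085. With the sex-linked score, Msr1 in TASTPM was -0.13, the interaction of Pros1 0.41 and of Stab1 0.32, and Gas6 between genotypes in K/BxN ST -0.020. Without the 4 libraries, WT gave Mertk 0.041 and Stab1 0.53, TASTPM Mertk 0.29, Pros1 0.014 and Msr1 -0.44, the interaction Axl 0.27 and Pros1 0.028, and genotype in K/BxN ST Axl 0.17. On the reads without the 4 libraries, edgeR and DESeq2 gave Mertk 0.057 and 0.053 and Stab1 0.55 and 0.54 in WT, Mertk 0.24 and 0.26 in TASTPM, Stab1 0.0082 in TASTPM (DESeq2), Axl 0.23 and 0.24 in the interaction, and Axl 0.18 and 0.17 and Msr1 1.61 and 1.62 between genotypes in K/BxN ST. Relative to microglial markers, WT gave Mertk 0.012, Gas6 0.28, Pros1 0.065 and Stab1 0.39, TASTPM Mertk 0.20, Pros1 0.12 and Stab1 0.16, the interaction Pros1 0.059, genotype in Control ST Mertk 0.20, Axl 0.15, Pros1 0.0051 and Lrp1 0.069, and genotype in K/BxN ST Axl 0.034 and Pros1 0.064. Apart from these constructions, the cause was not tested.

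Leaving out 1 library, signs turned within these ranges: in WT, Stab1 -0.40 to 0.093 and Lrp1 -0.093 to 0.20; in TASTPM, Gas6 -0.11 to 0.60; in the interaction, Mertk -0.22 to 0.49, Axl -0.54 to 0.19 and Pros1 -0.24 to 0.30. For genotype in Control ST they were Mertk -0.20 to 0.17, Axl -0.49 to 0.24 and Lrp1 -0.41 to 0.032, and in K/BxN ST Mertk -0.27 to 0.43, Gas6 -0.22 to 0.49, Pros1 -0.49 to 0.056, Msr1 -1.64 to 1.75, Stab1 -0.0083 to 0.58 and Lrp1 -0.042 to 0.33.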
